A study of Bos taurus and Ovis aries and Capra hircus with 18 samples.

Results

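The comparison described here asked where gene expression in cattle brain and muscle was divided between the tissues in another way than in sheep and goat. It used all 18 libraries of the study, 3 each of adult cattle brain, cattle muscle, sheep brain, sheep muscle, goat brain and goat muscle, with no treatment or genetic change named in the labels. Poly(A) RNA was sequenced, and the deposited values are read counts per gene, counted against a gene model of each species' own. The labels give no breed, sex, brain region, named muscle or number of animals. The libraries of a group are lettered A, B and C, and the labels do not say that the letters are separate animals, so p-values measure only the spread between these libraries. The extraction text of the muscle samples names brain as the frozen tissue, so the tissue labels were checked against marker genes below.

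Each gene's brain minus muscle difference was formed on the log2 scale within a species, and the mean of the sheep and goat differences was subtracted from the cattle difference. This value is called the cattle departure. A positive departure means that expression was weighted more towards brain in cattle than in sheep and goat, and a negative one that it was weighted more towards muscle. The departure is also the difference between cattle brain and the mean of sheep and goat brain, called the brain difference, minus the same quantity in muscle, called the muscle difference. Genes were matched between the 3 gene models by exon lengths and gene order, which gave 14319 genes in all 3 species, of 27607 cattle, 26478 sheep and 27271 goat genes. After a filter on low counts, 12940 genes were tested with edgeR's quasi-likelihood test. A gene is called where the Benjamini-Hochberg adjusted p over all 12940 genes is under 0.05 and the size of the log2 value is at least 1. Levels are given as CPM, counts scaled to a common library size and corrected for the exonic length in each species, so one gene can be compared between species, but 2 genes cannot be compared by them. Log2 values are given ± SE.

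Skeletal muscle fibres are built from repeated sarcomeres, whose myosin isoforms set the speed of contraction, and they use membrane pumps and chloride channels to stay excitable. Brain tissue mixes neurons, which release transmitter at synapses, with astrocytes, myelinating oligodendrocytes and vessel cells. The brain makes its own cholesterol, since the blood-brain barrier keeps out that of the blood. In bulk tissue, fewer cells of a type and less RNA per cell cannot be told apart, and this applies to every result below.

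The marker genes matched the tissue labels. The summed level of 14 core sarcomere genes was 220 to 233 CPM in cattle brain and 96698 to 112910 CPM in cattle muscle, and 42036 to 73129 CPM in sheep and goat muscle. The summed level of 12 general neuron genes was 8928 to 11632 CPM in cattle brain and 502 to 597 CPM in cattle muscle, where 6 of the 12 were below 1 CPM. Most of the muscle sum came from CAMK2A and CAMK2B, kinases that muscle also expresses, and the sheep muscle libraries held 0 reads of the neuron genes ELAVL4 and NEFH. Total counts ran from 40878387 to 58514630 in cattle libraries, from 25162316 to 46302643 in sheep libraries and from 20730803 to 29496749 in goat libraries. Mitochondrially encoded genes took 22.88% to 26.57% of the counts in cattle brain and 9.67% to 10.6% in cattle muscle, against at most 4.95% in any of the sheep and goat libraries, and the part of this in the results was not tested. The library sheep brain C stood apart, with a mean Spearman correlation of 0.816 with its group over the genes tested, against 0.902 and 0.904 for the other sheep brain libraries. It was the highest of the 9 brain libraries in 4090 genes and the lowest in 4431. Without it the number of calls was 2917, and no call changed direction.

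The departure was called in 2244 of the 12940 genes (17.3%). It was positive in 1053 genes (8.14%) and negative in 1191 genes (9.2%), with a median over all genes of -0.08. The same rule called 2543 genes (19.7%) for cattle against sheep alone and 1731 genes (13.4%) for cattle against goat alone, 2 comparisons that share the cattle libraries. Of the 2244 genes, 942 were called against each of the other species in the same direction, 459 positive and 483 negative. With sheep in the place of cattle, 1787 genes were called (13.8%), and with goat in that place 997 genes (7.7%).

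Muscle held the larger share of the departure. Among the 2244 called genes, 1152 (51.3%) were called in the muscle difference and not in the brain difference, against 476 (21.2%) called in the brain difference and not in the muscle difference. In 159 genes both were called with opposite signs, as in a gene that was higher in cattle brain and lower in cattle muscle, and in 299 neither was called by itself. The size of the muscle difference exceeded that of the brain difference in 1543 genes (68.8%). Over all genes tested, the muscle difference was called in 3967 (30.7%) and the brain difference in 2989 (23.1%). Where both tissues differ with the same sign, the equal part cancels in the departure and only the rest enters it. Of 1339 genes called with the same sign in both tissues, 1181 (88.2%) were not called in the departure. The other 158 make up 7.04% of the 2244 called genes. Over all genes tested, 17.3% were called in the departure. In 629 of the 1053 genes with a positive departure all 3 cattle muscle libraries lay below the 6 sheep and goat muscle libraries, a pattern seen in 17.1% of all genes tested. In 706 of the 1191 genes with a negative departure they lay above all 6, as in 18.4% of all genes. In brain, cattle lay above all 6 others in 335 genes with a positive departure, as in 13.6% of all genes. It lay below them in 389 with a negative one, as in 14.8% of all genes. The departure is formed from these same values, so shares above those of all genes follow from the choice of genes in both tissues.

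**Figure D1:**
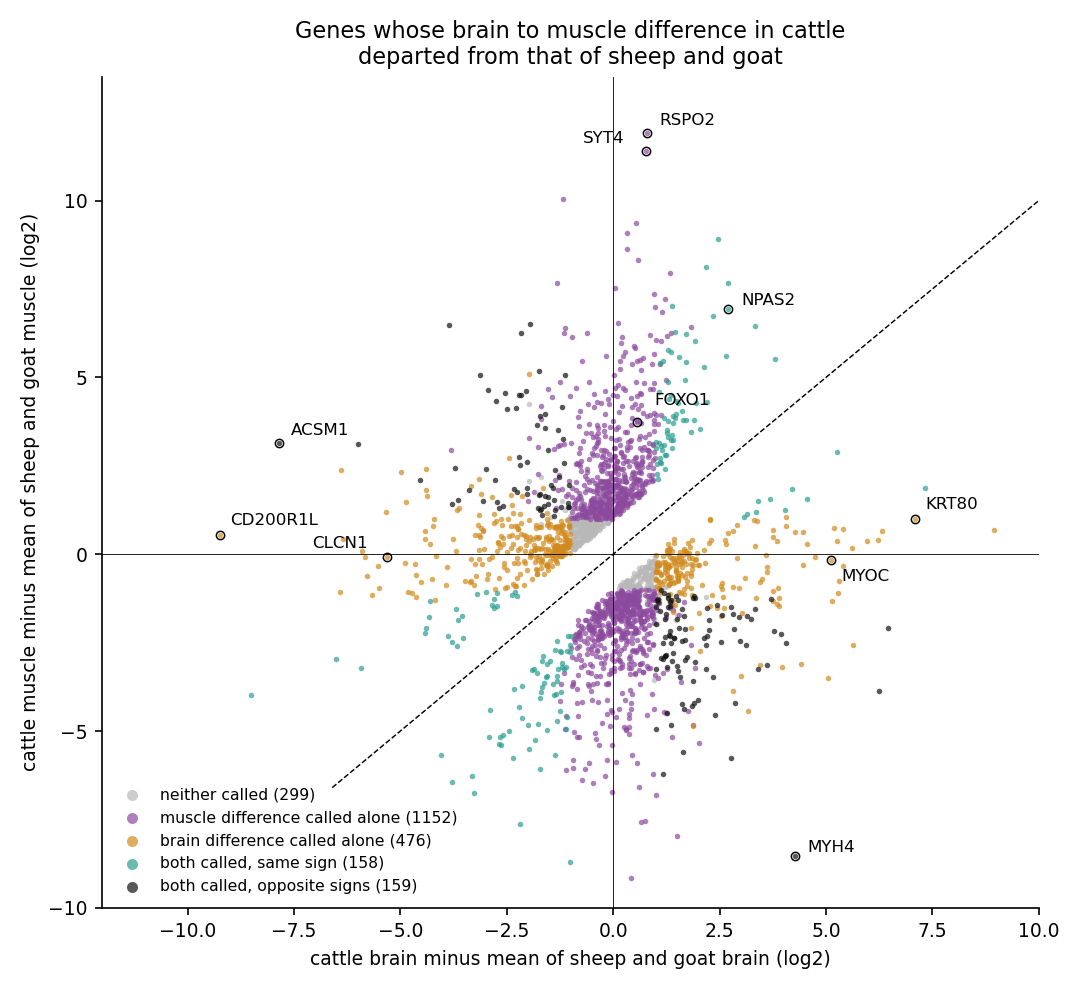
Each point is 1 of the 2244 genes called in the departure, with the brain difference on the x axis and the muscle difference on the y axis, both as log2 of cattle over the mean of sheep and goat. Genes on the dashed line would have a departure of 0, and the points spread further along the muscle axis, where 1152 genes were called in muscle only.

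A tissue difference was called in 55% of all genes tested in cattle, 55% in sheep and 52.1% in goat. In 530 of the 2244 genes the tissue difference was called with brain higher in all 3 species, and in 192 with muscle higher in all 3, so that the size of the difference departed and not its direction. In 450 genes a tissue difference was called in cattle only, and in 358 it was called in sheep and goat and not in cattle. In 39 genes the tissue direction in cattle was called opposite to that called in both sheep and goat, 20 with the higher level in cattle brain and 19 with the higher level in cattle muscle.

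Of the genes with the higher level in cattle muscle and in sheep and goat brain, RSPO2 had the largest departure. RSPO2 encodes R-spondin 2, a secreted protein that strengthens Wnt signalling, and the cattle gene lies on chromosome 14, 56385156 to 56556667 in ARS-UCD1.2. In brain it stood at 6.57, 6.97 and 6.81 CPM in the cattle libraries, 5.55, 5.91 and 1.36 CPM in the sheep libraries and 2.31, 4.03 and 4.24 CPM in the goat libraries. In muscle it stood at 82.3, 83.4 and 71.96 CPM in cattle, 0, 0.0711 and 0 CPM in sheep and 0, 0 and 0.0369 CPM in goat. All 3 cattle brain libraries lay above the 6 others, by far less than in muscle. All 3 cattle muscle libraries lay far above the 6 others, which held 1 read in all of the sheep and 1 read in all of the goat libraries. The ratio of cattle muscle to sheep muscle was 3230 with a 95% exact interval of 579 to 127590, and that to goat muscle 7337 with an interval of 1316 to 289830, covering counting error only. The fitted departure was -11.11 ± 0.79 (adjusted p = 5.12e-07).

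MSRA encodes methionine sulfoxide reductase A, an enzyme that repairs oxidised methionine, and the cattle gene lies on chromosome 8, 8755177 to 9169658. In brain it stood at 28.5, 29.3 and 26.3 CPM in cattle, 27.4, 35.3 and 36.7 CPM in sheep and 41.5, 52.5 and 61.2 CPM in goat. In muscle it stood at 146, 167 and 156 CPM in cattle, 5.48, 4.71 and 4.699 CPM in sheep and 6.06, 5.16 and 6.08 CPM in goat. The cattle muscle libraries lay close together and far above the other 6, while the brain libraries of cattle and sheep overlapped. The departure was -5.43 ± 0.27 (adjusted p = 4.15e-09), with a muscle difference of 4.87 ± 0.18. RGS2, a regulator that shortens G protein signalling, stood at 92.7, 144 and 119 CPM in cattle muscle, 8.26, 9.69 and 11.8 CPM in sheep muscle and 20.3, 20.3 and 5.36 CPM in goat muscle, and its departure was -4.45 ± 0.49 (adjusted p = 2.7e-05). Its brain levels ran the other way, with 7.904 to 14.2 CPM in cattle brain below the 18.1 to 21.6 CPM of sheep brain and the 24.1 to 38.2 CPM of goat brain.

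HCRTR1, a receptor for the peptide orexin, held 12.1, 12.4 and 12.5 CPM in cattle muscle, 0.656, 0.906 and 1.16 CPM in sheep muscle and 0.159, 0.301 and 1.68 CPM in goat muscle, a departure of -4.16 ± 0.91 (adjusted p = 0.00466). FAM221A, a gene whose function is little known, held 6.58, 12.7 and 16.9 CPM in cattle muscle, 0.116, 0.224 and 0.2398 CPM in sheep muscle and 0.404, 0.2398 and 0.476 CPM in goat muscle, a departure of -4.92 ± 0.58 (adjusted p = 4.75e-05). In both genes the cattle muscle libraries lay above all 6 others, and the cattle brain libraries overlapped those of sheep.

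Among the genes with the higher level in cattle brain and in sheep and goat muscle was DDC, which encodes the decarboxylase that makes dopamine and serotonin from their precursors, on chromosome 4, 5336436 to 5441308. In brain DDC stood at 26.5, 33.2 and 12.5 CPM in cattle, 2.54, 4.42 and 5.47 CPM in sheep and 0.552, 1.008 and 0.672 CPM in goat. In muscle it stood at 6.699, 16.3 and 6.43 CPM in cattle, 65.9, 33.1 and 62.3 CPM in sheep and 32.1, 29.8 and 47.3 CPM in goat. All cattle brain libraries lay above, and all cattle muscle libraries below, those of the other species, and the departure was 5.95 ± 0.59 (adjusted p = 1.12e-05). The brain difference of DDC was 3.78 ± 0.38 and the muscle difference -2.17 ± 0.42, both called.

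MXRA5, an extracellular matrix protein, showed the same pattern, with 22.6, 35.4 and 20.1 CPM in cattle brain, 2.24, 2.01 and 1.396 CPM in sheep brain and 1.03, 2.23 and 10.6 CPM in goat brain. Its muscle levels were 4.15, 6.82 and 10.05 CPM in cattle, 26.3, 35.7 and 37.2 CPM in sheep and 16.7, 20.1 and 14.3 CPM in goat, and the departure was 4.90 ± 0.75 (adjusted p = 0.000384). KRT80, a keratin of epithelial cells, stood at 7.16, 7.41 and 16.4 CPM in cattle brain against 0.175, 0.0505 and 0.0616 CPM in sheep brain and 0.0387, 0 and 0.116 CPM in goat brain, and its departure of 6.10 ± 1.12 lay in the brain difference of 7.08 ± 0.80. CHP2, a calcium-binding protein, overlapped in brain between cattle and sheep and held 1.21, 0.535 and 0.611 CPM in cattle muscle against 19.998, 31.96 and 23.8 CPM in sheep muscle and 12.4, 10.6 and 17.5 CPM in goat muscle, a departure of 5.35 ± 0.58. For TIMM44 the cattle gene model also covers the place of another gene, CTXN1, in the RefSeq annotation of ARS-UCD2.0, and for PKD2L2 the sheep model overlaps another gene. Their departures of 4.78 ± 0.39 and 4.74 ± 0.65 are therefore uncertain.

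The plot of the genes named from the 39 by the size of the departure shows the reversal in each. None of these genes lost its departure call when any 1 of the 18 libraries was left out. For the reversal itself only the number of genes is given, which then ran from 33 to 47.

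**Figure D2:**
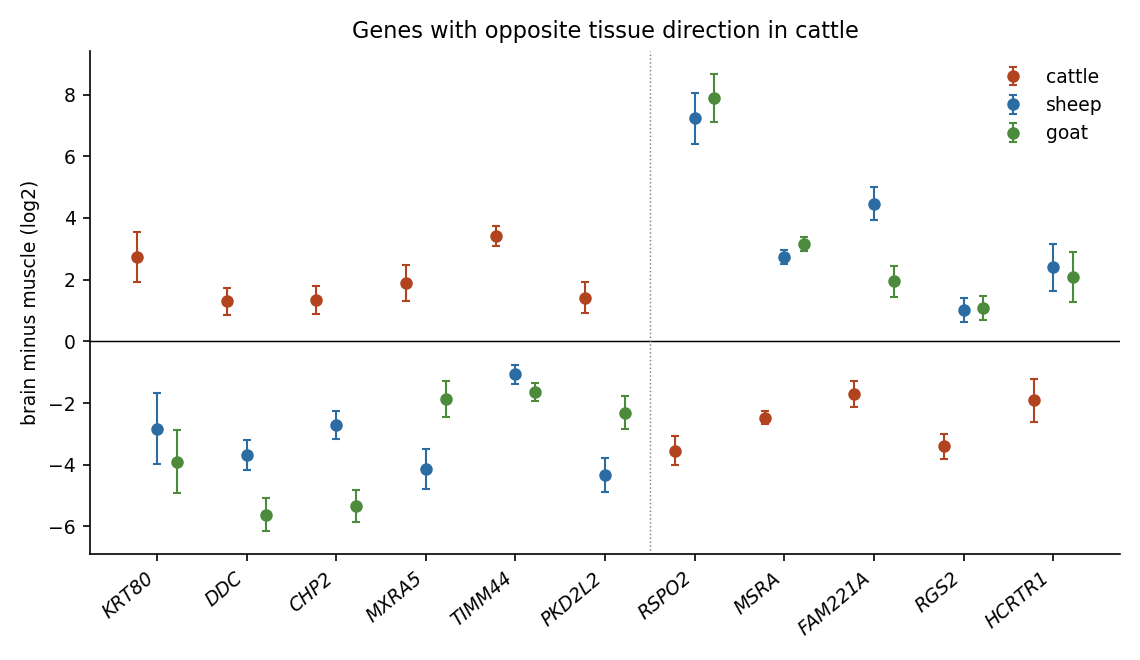
Brain minus muscle difference (log2 ± SE, y axis) of 11 named genes whose tissue direction was opposite in cattle, with 1 point for each species. Values above 0 mean a higher level in brain, and in every gene shown the cattle point lies on the other side of 0 from the sheep and goat points, as in RSPO2 with -3.55 in cattle, 7.24 in sheep and 7.89 in goat.

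Myosin heavy chain genes were among those with the largest departures. MYH4 encodes the fast IIb myosin of skeletal muscle. In muscle it stood at 0.267, 5.03 and 1.57 CPM in cattle, 762, 1350.1 and 1455 CPM in sheep and 879, 858 and 136 CPM in goat, and in brain at no more than 4.69 CPM in any library. The cattle muscle libraries lay below all others, and the departure was 12.80 ± 1.35 (adjusted p = 1.73e-05). MYH8, a myosin of newborn muscle, held 0.772 to 0.947 CPM in cattle muscle against 3.81 to 21.1 CPM in sheep muscle and 8.76 to 193 CPM in goat muscle, a departure of 7.36 ± 1.35. MYH6, the alpha myosin of the heart, went the other way, with 0.771, 0.778 and 0.9901 CPM in cattle brain against 13.7, 17.98 and 33.7 CPM in sheep brain and 33.01, 13.9 and 6.395 CPM in goat brain, a departure of -6.63 ± 0.90. MYH4, MYH8 and MYH6 have close copies of like exon structure in the same genome. Reads may be divided between the copies in a different way in each gene model, and the values are uncertain for that reason. KY, a protein needed to keep skeletal muscle intact in mice, has no such copy and held 2.82, 8.55 and 1.66 CPM in cattle muscle against 271, 99.9 and 61.8 CPM in sheep muscle and 66.95, 74.9 and 12.4 CPM in goat muscle. Its departure was 6.16 ± 0.93 (adjusted p = 0.000336), and in cattle its brain and muscle libraries overlapped.

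Several genes best known from neurons and glia had a departure that rested on low levels in muscle. SYT4, a synaptotagmin of secretory vesicles, was present in cattle muscle at 37.6, 12.8 and 14.9 CPM, while the sheep muscle libraries held 0 reads and the goat muscle libraries 1 read. In brain it stood at 133, 122 and 154 CPM in cattle, 116, 104 and 9.66 CPM in sheep and 67.8, 105 and 78.7 CPM in goat, where sheep brain C lay far below its group. With sheep muscle set at a floor of 3 counts over the group, the departure was at most -8.86. CELF6, an RNA-binding protein of neurons, held 1.46, 2.02 and 1.29 CPM in cattle muscle and 0 reads in sheep and goat muscle, and with both at the floor the departure was at most -4.69. MLC1, a membrane protein of astrocytes, held 4.99, 0.938 and 1.69 CPM in cattle muscle, 0 reads in sheep muscle and 0.107, 0.101 and 0.335 CPM in goat muscle, which gave at most -4.45.

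SLC30A3, the transporter that fills synaptic vesicles with zinc, stood at 2.54, 4.15 and 7.196 CPM in cattle muscle, 0.0747, 0.397 and 0.116 CPM in sheep muscle and 0.0748, 0.0711 and 0 CPM in goat muscle. GLT1D1, a glycosyltransferase, stood at 1.11, 10.7 and 11.1 CPM in cattle muscle, 0.0285, 0 and 0.0294 CPM in sheep muscle and 0.0861, 0.0409 and 0.152 CPM in goat muscle. The cattle muscle libraries of both genes lay above the 6 others, with departures of -6.17 ± 0.74 and -6.40 ± 0.83. Of the 12 general neuron genes, 2 were called higher in cattle muscle, SNAP25 and NEFH, and 0 lower, beside 14.7% and 16% of all genes. The median muscle difference of the 12 was 0.65. Their summed level, which came mostly from the kinases that muscle also expresses, was 502 to 597 CPM in cattle muscle and 491 to 829 CPM in sheep and goat muscle. The part of neuron RNA in these values was not tested.

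Other neural genes were lower in cattle muscle. CNTN4 and CDH7, adhesion molecules of neurons, held 2 reads each over the 3 cattle muscle libraries. CNTN4 stood at 3.33, 3.21 and 2.77 CPM in sheep muscle and 2.05, 1.37 and 3.53 CPM in goat muscle, and the ratio of cattle to sheep muscle was 0.0102 with a 95% exact interval of 0.00123 to 0.0374. The departure of CNTN4 was 7.16 ± 0.98, and that of CDH7, which has 10 genes of like exon structure, was 7.25 ± 1.008. For CDH7 the ratio of cattle to sheep muscle was 0.0331 with an interval of 0.00396 to 0.123. LGI1, a protein secreted at synapses, stood at 0, 0.253 and 0.136 CPM in cattle muscle, 4.94, 11.2 and 7.49 CPM in sheep muscle and 11.4, 11.4 and 4.47 CPM in goat muscle, with a departure of 6.46 ± 0.68 (adjusted p = 1.56e-05). TAC1, the precursor of substance P, held 1 read in cattle muscle against 4.07, 7.54 and 4.204 CPM in sheep muscle and 0.604, 0.391 and 0.9398 CPM in goat muscle, a ratio to sheep muscle of 0.00315 with an interval of 7.95e-05 to 0.0177 and a departure of 6.02 ± 0.81. GALNT13, a glycosyltransferase of neurons, held 0 reads in cattle muscle against 0.0322 to 0.234 CPM in sheep and 1.21 to 2.01 CPM in goat muscle, and with the floor its departure was at least 3.26. SSLP1 also held 0 reads in cattle muscle, and its departure was at least 4.21. All cattle muscle libraries lay below those of the other species in these genes.

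Low levels in cattle brain lay behind 2 of the largest negative departures. ACSM1, a mitochondrial enzyme that activates fatty acids, held 2 reads over the cattle brain libraries against 4.35, 1.71 and 3.95 CPM in sheep brain and 7.87, 6.58 and 6.35 CPM in goat brain, with 3.16, 17.4 and 18.5 CPM in cattle muscle. The ratio of cattle to sheep brain was 0.00497 with a 95% exact interval of 0.000599 to 0.0181, and the departure was -11.01 ± 1.15 (adjusted p = 1.56e-05). CD200R1L, a receptor-like gene of the CD200 receptor family, held 0 reads in cattle brain against 9.602, 14.7 and 10.6 CPM in sheep brain and 0.379, 0.223 and 0.203 CPM in goat brain, and with the floor its departure was at most -5.84. Of the other genes with a large negative departure, IQCA1L held 54.8, 27.1 and 24.8 CPM in cattle muscle against 0.1904 to 0.415 CPM in sheep muscle and 7.73 to 10.6 CPM in goat muscle, where the goat gene model overlaps another gene. PPDPFL held 170.3, 129.5 and 166 CPM in cattle muscle, 22.6, 32.4 and 109.8 CPM in sheep muscle and 5.45, 15.5 and 24.7 CPM in goat muscle, a departure of -6.15 ± 0.76. None of the genes named here for the size of their departure lost its call when 1 library was left out.

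Of 20 genes of cholesterol synthesis and uptake tested, 9 (45.0%) had a positive departure and none a negative one, beside 8.14% and 9.2% of all genes, and 17 of the 20 values were above 0 with a median of 0.97. The median brain difference was 0.92, with 9 members called higher in cattle brain, and the median muscle difference was -0.30, with 4 members called higher and 5 lower in cattle muscle. Over all genes tested, 9.74% were called higher in cattle brain, and 14.7% higher and 16% lower in cattle muscle. The summed level was 2537 to 2781 CPM in cattle brain, 1090 to 1460 CPM in sheep brain and 1279 to 1531 CPM in goat brain. In muscle the sum was 357 to 388 CPM in cattle, 617 to 760 CPM in sheep and 537 to 693 CPM in goat, so the sums of cattle did not overlap those of the other species in either tissue.

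HMGCS1 makes HMG-CoA, the start of the committed pathway. In brain it stood at 448, 419 and 496 CPM in cattle, 316, 263 and 67.3 CPM in sheep and 289.7, 252 and 277 CPM in goat, and in muscle at 26.8, 29.3 and 21.7 CPM in cattle, 93.4, 75.2 and 98.6 CPM in sheep and 78.5, 106 and 31.6 CPM in goat. Cattle lay above all others in brain and below all others in muscle, with a departure of 2.53 ± 0.54 (adjusted p = 0.00417).

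FDFT1, squalene synthase, joins farnesyl units to squalene and showed a muscle difference. It stood at 58.2, 69.03 and 51.2 CPM in cattle muscle, 273, 253 and 216 CPM in sheep muscle and 197, 204 and 399.6 CPM in goat muscle, and at 159.6, 178 and 194 CPM in cattle brain, 98.9, 85.8 and 166 CPM in sheep brain and 145, 109 and 131 CPM in goat brain. The cattle muscle libraries lay below all others, the departure was 2.64 ± 0.36 (adjusted p = 0.000166), and the tissue direction was brain in cattle and muscle in sheep and goat. SQLE, which oxidises squalene, and LSS, which closes the sterol rings, showed brain differences instead. SQLE stood at 305, 301 and 309 CPM in cattle brain, 124, 104 and 75.6 CPM in sheep brain and 84.9, 74.3 and 80.9 CPM in goat brain, and LSS at 75.2, 77.4 and 84.5 CPM in cattle brain, 28.5, 28.99 and 18.1 CPM in sheep brain and 37.7, 33.2 and 38.6 CPM in goat brain. Cattle brain lay above all others in both genes, with brain differences of 1.76 ± 0.24 and 1.38 ± 0.20 and departures of 1.44 ± 0.36 and 1.30 ± 0.30.

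CYP51A1, which removes a methyl group from lanosterol, stood at 5.08, 5.02 and 4.098 CPM in cattle muscle, 19.5, 21.5 and 12.8 CPM in sheep muscle and 18.2, 18.6 and 6.79 CPM in goat muscle, below all others in cattle, and its departure was 2.41 ± 0.58 (adjusted p = 0.00815). MVD, the decarboxylase of the mevalonate steps, had a departure of 1.252 ± 0.42. The call of MVD ended without any 1 of 17 libraries and against sheep alone, and those of CYP51A1 and SQLE against goat alone. Sheep brain C was the lowest sheep library in brain for HMGCS1, SQLE, LSS and CYP51A1, and the highest for FDFT1 and MVD. The goat model of SQLE overlaps another gene. The number of members called ran from 6 to 9 when 1 library was left out. SQLE and MVD were named outside the rule for gene names, after their values were seen.

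**Figure D3:**
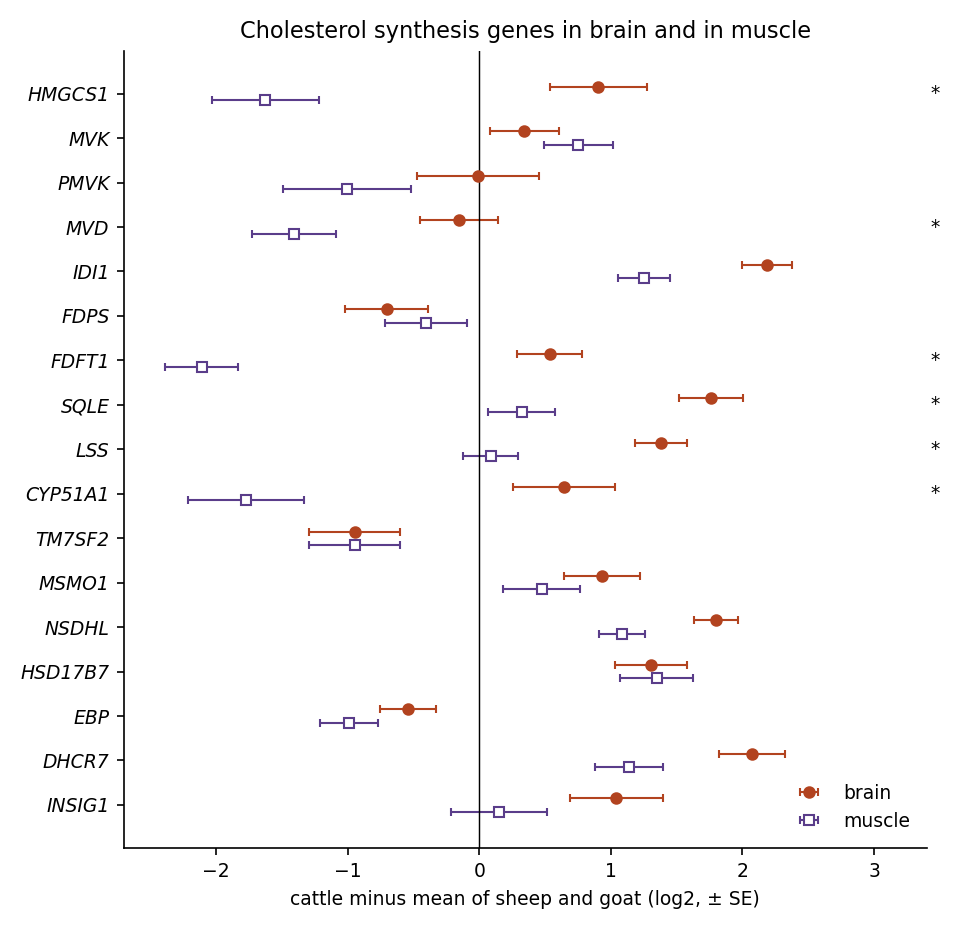
Brain difference (filled) and muscle difference (open), as log2 of cattle over the mean of sheep and goat ± SE, for 17 of the 20 genes of cholesterol synthesis and uptake, with an asterisk for a called departure. The median over all 20 is 0.92 in brain and -0.30 in muscle, and the called genes differ in whether the gap lies in brain, as in LSS, or in muscle, as in FDFT1.

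The FOXO programme drives protein breakdown and autophagy in muscle. Of 11 members tested, 3 had a negative departure and none a positive one, beside 9.2% and 8.14% of all genes. The median departure was -1.24 and the median muscle difference 2.04, with 6 members called higher and 1 lower in cattle muscle, beside 14.7% and 16% of all genes. FOXO1, the transcription factor itself, lies on chromosome 12, 21900230 to 21991693 in cattle. It stood at 465, 388 and 346 CPM in cattle muscle, 36.4, 25.6 and 43.4 CPM in sheep muscle and 22.996, 29.6 and 24.03 CPM in goat muscle, and at 34.999, 32.8 and 32 CPM in cattle brain, 28.98, 29.8 and 3.33 CPM in sheep brain and 25.2, 18.2 and 29.5 CPM in goat brain. All cattle muscle libraries lay above the 6 others, and the departure was -3.17 ± 0.61 (adjusted p = 0.00216). GABARAPL1, which coats autophagosome membranes, stood at 226, 191 and 357 CPM in cattle muscle, 42.3, 45.9 and 43.7 CPM in sheep muscle and 49.97, 58.6 and 76.2 CPM in goat muscle, a departure of -2.37 ± 0.32 (adjusted p = 0.000136). BNIP3, a receptor for the autophagy of mitochondria, stood at 913, 1314 and 964 CPM in cattle muscle, 227, 262 and 236 CPM in sheep muscle and 209, 199.8 and 337 CPM in goat muscle, a departure of -1.56 ± 0.33 (adjusted p = 0.00345).

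The muscle groups of GABARAPL1 and BNIP3 did not overlap either. The ubiquitin ligases of muscle wasting were not called in the departure, with -2.01 ± 0.69 for FBXO32 (adjusted p = 0.0515) and -1.60 ± 0.64 for TRIM63 (adjusted p = 0.0954). FBXO32 stood at 279.9, 518 and 577 CPM in cattle muscle, 134, 257 and 495 CPM in sheep muscle and 36.4, 56.6 and 28.9 CPM in goat muscle, so cattle and sheep overlapped.

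Of 19 ion pumps and channels, 2 had a positive and 4 a negative departure, beside 8.14% and 9.2% of all genes. ATP1B2, a beta subunit of the sodium pump, stood at 2.88, 3.301 and 2.85 CPM in cattle muscle, 6.59, 9.24 and 5.55 CPM in sheep muscle and 5.25, 5.46 and 5.61 CPM in goat muscle, below all others in cattle, a departure of 2.01 ± 0.35 (adjusted p = 0.00104).

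CLCN1, the chloride channel that steadies the muscle membrane, had like levels in muscle in the 3 species and a low level in cattle brain. It stood at 0.238, 0.222 and 0.201 CPM in cattle brain, 19.7, 18.6 and 40.3 CPM in sheep brain and 4.75, 2.05 and 2.204 CPM in goat brain, against 142, 138 and 94.9 CPM in cattle muscle, 148, 138 and 95.9 CPM in sheep muscle and 155, 142 and 107 CPM in goat muscle. The cattle brain libraries lay below all others, the departure was -5.24 ± 0.50 (adjusted p = 6.57e-06), and the muscle difference was -0.07 ± 0.30. CACNA1E, a neuronal calcium channel, held 1.08, 9.14 and 1.16 CPM in cattle muscle, 2 reads in sheep muscle and 1 read in goat muscle, a departure of -6.02 ± 1.40. Its ratio of cattle to goat muscle was 214 with a 95% exact interval of 38.04 to 8478. SCN8A, a sodium channel of neurons, had a departure of 3.11 ± 0.90, lost without cattle brain A, cattle muscle A or cattle muscle B, against goat alone and by limma-voom.

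**Figure D4:**
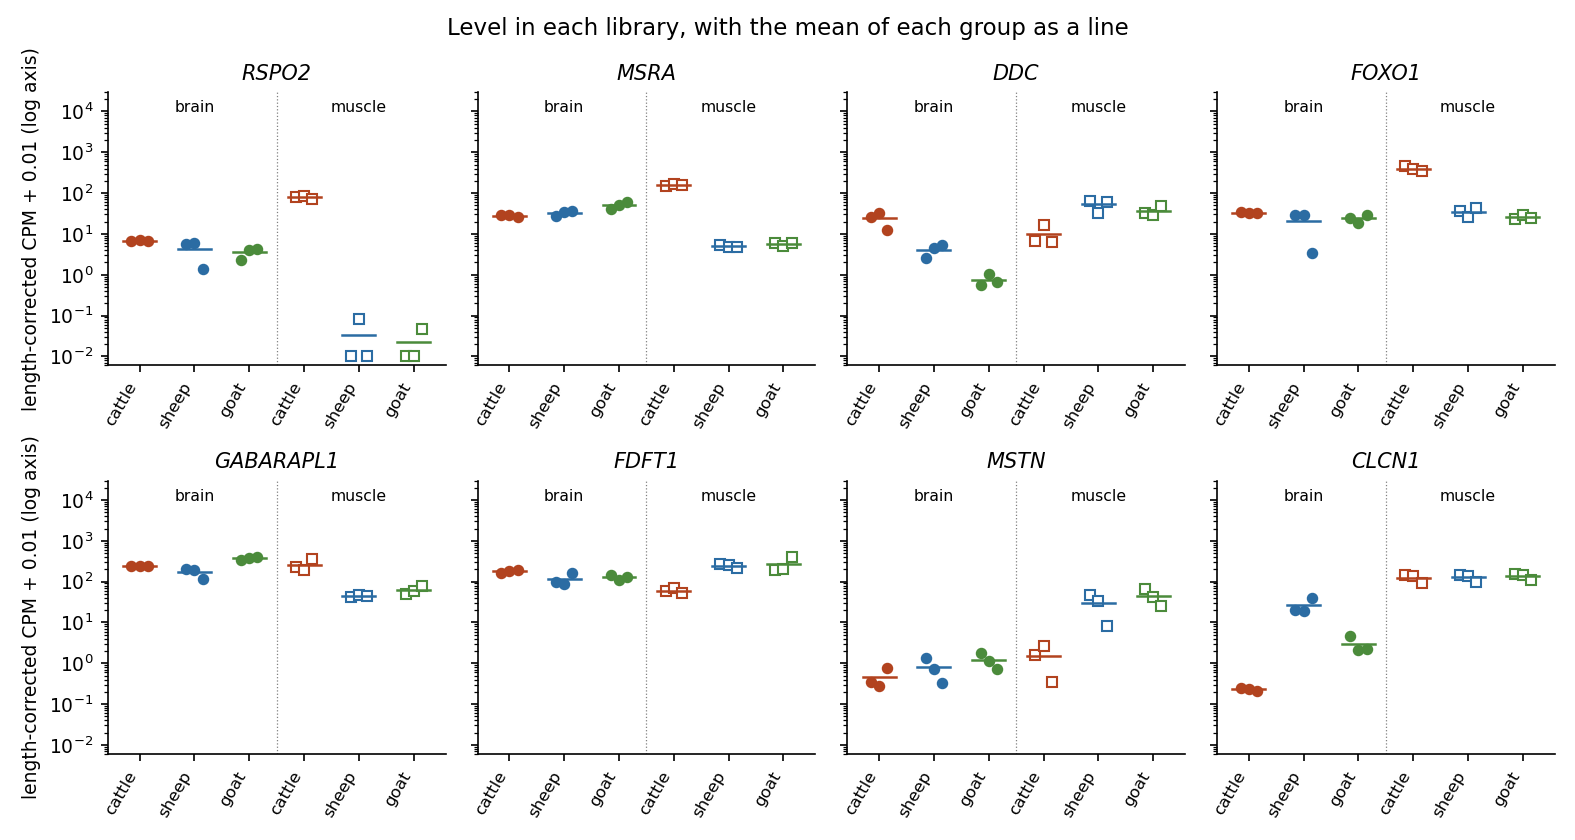
Level of 8 genes in each of the 18 libraries, in length-corrected CPM plus 0.01 on a log axis, with brain libraries as filled circles, muscle libraries as open squares and a line at the mean of each group. RSPO2, MSRA, FOXO1 and GABARAPL1 have cattle muscle above the other muscle groups, FDFT1 and MSTN below them, DDC differs in both tissues and CLCN1 in brain.

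Of the slow fibre genes 21.4% were called and of the fast fibre genes 14.3%, beside 17.3% of all genes. None of 14 slow fibre genes had a positive and 3 a negative departure, TNNT1, CASQ2 and TNNI1, and of 14 fast fibre genes 1 had a positive and 1 a negative one. The summed slow fibre level was 57769 to 146890 CPM in cattle muscle, 19404 to 27390 CPM in sheep muscle and 29394 to 78798 CPM in goat muscle. The 3 departures were not called in muscle, however. TNNT1 and CASQ2 were called lower in cattle brain, with brain differences of -1.84 and -1.55. Their muscle differences of 0.17 and 1.003 were not called. For TNNI1 neither the brain difference of -1.47 nor the muscle difference of 1.04 was called. TNNT1, slow troponin T, had a departure of -2.01 ± 0.55 that ended without cattle brain A or cattle muscle A, and CASQ2, a calcium buffer of slow and cardiac muscle, one of -2.55 ± 0.66 that ended without cattle muscle A. TNNI1, slow troponin I, had one of -2.51 ± 0.80 that ended without any 1 of 10 libraries and by limma-voom. Neither TNNT1 nor TNNI1 was called against goat alone. No slow fibre gene was called without cattle muscle A, and 1 without cattle brain A. MYBPC2, the fast myosin-binding protein, was called from its brain level, 1.41, 2.33 and 3.54 CPM in cattle, 16.8, 26.6 and 66.1 CPM in sheep and 5.599, 4.98 and 7.91 CPM in goat, which did not overlap, with a departure of -3.14 ± 0.62 (adjusted p = 0.00241).

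In the machinery that couples excitation to calcium release, 2 of 14 genes had a positive departure and none a negative one. Over all genes these shares were 8.14% and 9.2%. CACNB1, a subunit of the voltage sensor, stood at 171, 173 and 157 CPM in cattle muscle, 462, 363 and 321 CPM in sheep muscle and 358, 317 and 596 CPM in goat muscle, and at 119 to 141 CPM in cattle brain, 55.3 to 67.1 CPM in sheep brain and 61.7 to 100.5 CPM in goat brain. Cattle lay below all others in muscle and above all others in brain, and the departure was 2.24 ± 0.32 (adjusted p = 0.000222). Without cattle brain C 1 member had a negative departure. HRC, a calcium-binding protein of the sarcoplasmic reticulum, held 393, 328 and 355 CPM in cattle muscle, 1071, 825 and 881 CPM in sheep muscle and 736, 892 and 1337 CPM in goat muscle, a departure of 1.84 ± 0.49, and its cattle gene model overlaps another gene. HRC was not called against sheep alone.

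Of 13 genes of the growth axis, 3 had a positive and 1 a negative departure, beside 8.14% and 9.2% of all genes. MSTN encodes myostatin, the secreted inhibitor of muscle growth, and lies on chromosome 2, 6278630 to 6285486. It stood at 1.57, 2.65 and 0.331 CPM in cattle muscle, 47.4, 33.2 and 8.001 CPM in sheep muscle and 64.5, 42.5 and 25.03 CPM in goat muscle, and at no more than 1.76 CPM in any brain library. The cattle muscle libraries lay below the 6 others, the muscle difference was -4.56 ± 0.76, and the departure of 3.45 ± 0.92 (adjusted p = 0.0161) was lost without cattle brain C and by limma-voom. FSTL3, a binding protein of myostatin and activin, stood at 0.716, 0.763 and 0.694 CPM in cattle brain, 178, 195 and 311 CPM in sheep brain and 1.13, 1.78 and 1.58 CPM in goat brain. Sheep brain was high while cattle and goat brain were low, and the departure of -4.39 ± 0.35 was -6.92 against sheep and -1.87 against goat, which share the cattle libraries. IGFBP5, a binding protein of insulin-like growth factors, stood at 28.6, 33.5 and 11.6 CPM in cattle muscle, 437, 191 and 112 CPM in sheep muscle and 139, 149 and 26.5 CPM in goat muscle, and its departure of 3.17 ± 0.83 was lost without cattle muscle C and against goat alone. The cattle muscle libraries of IGFBP5 overlapped goat muscle C. ACVR2B, a myostatin receptor, had a departure of 1.31 ± 0.41 that ended without any 1 of 10 libraries and against goat alone. Without cattle brain C or cattle muscle C 1 of the 3 positive calls was left, and without goat brain B there were 2 negative ones.

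In fuel metabolism the calls went in both directions. Of 18 glycolysis genes, 1 had a positive and 3 a negative departure, and of 19 genes of fat oxidation 1 had each. Over all genes 8.14% had a positive and 9.2% a negative departure. A single negative glycolysis call was left without cattle brain A, cattle brain B, cattle brain C, sheep muscle C or goat muscle A, and 2 positive ones stood without sheep brain C or goat brain B. Without sheep brain C the fat oxidation list had 3 positive and 2 negative departures, and without cattle brain B 2 negative ones. HK1, the hexokinase of brain, stood at 17.4, 15.3 and 15.4 CPM in cattle muscle, 121, 101 and 105 CPM in sheep muscle and 67.8, 74.9 and 64.1 CPM in goat muscle, non-overlapping, with a departure of 2.09 ± 0.24 (adjusted p = 3.83e-05), though its cattle gene model overlaps another gene. PGAM2, the muscle phosphoglycerate mutase, had a departure of -1.58 ± 0.39, with -0.29 against sheep and -2.86 against goat. Its brain difference of -1.01 was called, and its muscle difference of 0.56 was not. CPT1B, which admits fatty acids to mitochondria in muscle, had a departure of -3.48 ± 0.60 and lay lower in cattle brain, but its cattle model overlaps another gene. DECR1, an enzyme for unsaturated fatty acids, had one of 1.94 ± 0.32. LIPE, hormone-sensitive lipase, stood at 118, 89.6 and 152 CPM in cattle muscle, 22.2, 30.3 and 15.1 CPM in sheep muscle and 11.1, 21.8 and 12.3 CPM in goat muscle. These did not overlap, and the departure was -3.26 ± 0.47 (adjusted p = 0.000231). HMOX1, the enzyme that breaks down heme, stood at 193, 166 and 344 CPM in cattle muscle, 18.5, 53.1 and 93.3 CPM in sheep muscle and 2.96, 4.85 and 34.5 CPM in goat muscle, and was the 1 gene called of 19 for iron and oxidative stress, with -4.32 ± 0.95 (adjusted p = 0.00470). That is 5.26% of the list, beside 17.3% of all genes.

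For nuclear genes of the respiratory chain the list medians were below 0 in both tissues and near 0 in the departure. Of 31 complex I genes, 9 were called lower in cattle brain and 13 lower in cattle muscle, none higher, beside 13.4% of all genes lower in cattle brain and 16% lower in cattle muscle, with medians of -0.59 and -0.75. Of 30 genes of complexes II to V, 13 were called lower and 2 higher in cattle brain, and 16 lower and 2 higher in cattle muscle, with medians of -0.81 and -1.07. In the departure edgeR called 1 of the 31 and 0 of the 30, beside 17.3% of all genes. The list medians were 0.21 and 0.10. The 1 called, NDUFA5 with 1.002 ± 0.29, lost its call without any 1 of 9 libraries and against goat alone. Of the 30, 2 had an unadjusted p under 0.05, 1 was called by DESeq2 and 1 by limma-voom, and 1 was called by edgeR without sheep brain C. The mitochondrially encoded share of counts given above was higher in cattle in both tissues, and its part in these values was not tested.

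Of 47 cytosolic ribosomal protein genes tested, 7 had a negative departure and none a positive one (14.9%), beside 9.2% and 8.14% of all genes, 45 of the 47 values were below 0, and the median was -0.66. The median brain difference was -1.12, with 28 called lower in cattle brain and none higher, and the median muscle difference was -0.47, with 13 called lower and none higher. Over all genes 13.4% were called lower in cattle brain and 16% lower in cattle muscle. The summed level was 7855 to 9903 CPM in cattle brain, 14154 to 34146 CPM in sheep brain and 14533 to 20943 CPM in goat brain. RPL5, a protein of the large subunit, stood at 158, 171 and 155 CPM in cattle brain, 299.5, 348 and 396 CPM in sheep brain and 484, 354 and 349 CPM in goat brain, which did not overlap, with a departure of -1.16 ± 0.25 (adjusted p = 0.00447). Its cattle and sheep models overlap another gene. None of the 7 was called against goat alone. Ribosomal protein genes have many processed copies in mammalian genomes, among which reads can be divided. The number called was 2 without cattle brain A, cattle brain C or cattle muscle C, 3 without sheep brain C or sheep muscle C, and 4 without sheep muscle B, goat brain A, goat muscle A or goat muscle B. It was 2 with the relative log expression scaling and 3 with library totals alone.

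Of 12 general neuron genes, with a median of -0.27, 1 had a positive and 2 a negative departure, beside 8.14% and 9.2% of all genes. Of 10 genes of transmitter release, 2 had a positive and 1 a negative departure. The negative one, STX1A, ended without any 1 of 9 libraries and against goat alone, and without sheep brain C there were 2 positive neuron calls and 2 negative release calls. By edgeR none of 13 glutamatergic and none of 13 GABAergic genes was called. Of the glutamatergic genes 3 had an unadjusted p under 0.05, 1 was called by DESeq2 and none by limma-voom, and 2 were called by edgeR without sheep brain C and 1 without sheep muscle B or goat muscle C. Of the GABAergic genes none had an unadjusted p under 0.05, 1 was called by DESeq2 and none by limma-voom, and 1 was called by edgeR without sheep brain C. SV2A, a synaptic vesicle protein, stood at 627, 530.1 and 489 CPM in cattle brain, 412, 319 and 109 CPM in sheep brain and 287, 369.6 and 516 CPM in goat brain, with 0.474, 0.495 and 0.982 CPM in cattle muscle, 2.47, 1.803 and 1.35 CPM in sheep muscle and 3.37, 3.12 and 2.99 CPM in goat muscle. The muscle groups did not overlap, while cattle and goat brain did, and the departure was 2.62 ± 0.52 (adjusted p = 0.00245).

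NEFH, the heavy neurofilament, held 0.296, 2.14 and 0.468 CPM in cattle muscle, 0 reads in sheep muscle and 0, 0.0519 and 0.193 CPM in goat muscle, and with the floor its departure was at most -3.82. SNAP25, a fusion protein of nerve terminals, held 0.8399, 1.24 and 0.886 CPM in cattle muscle and 0.764, 0.68996 and 0.812 CPM in goat muscle but 1 read in sheep muscle, so its departure of -2.72 ± 0.72 was -5.17 against sheep and -0.27 against goat. The call was lost against goat alone and by limma-voom, and the ratio of cattle to sheep muscle was 51.3 with a 95% exact interval of 8.91 to 2052. STMN2, a tubulin-binding protein of neurons, had a departure of 1.67 ± 0.49, lost without cattle brain C, cattle muscle B or cattle muscle C and against goat alone. CELF4, an RNA-binding protein of neurons, held 0.173, 0.139 and 0.1496 CPM in cattle muscle, 3.58, 1.32 and 1.79 CPM in sheep muscle and 0.898, 0.626 and 0.919 CPM in goat muscle, below all others in cattle, with a departure of 3.74 ± 0.63 (adjusted p = 0.000812).

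Among genes best known from astrocytes, 3 of 11 had a positive and 4 a negative departure, beside 8.14% and 9.2% of all genes. The list median was -1.04. The negative departures were -2.04 for GFAP, -2.06 for GLUL, -1.57 for ALDOC and -1.48 for S100B. GFAP was called in the brain difference, and all the other called members were called in the muscle difference instead. ALDH1L1, a folate enzyme of astrocytes, stood at 0.0499, 0.241 and 0.0431 CPM in cattle muscle, 3.87, 8.68 and 2.24 CPM in sheep muscle and 5.24, 3.37 and 3.62 CPM in goat muscle, and SOX9, an astrocyte transcription factor, at 1.63, 1.68 and 0.736 CPM in cattle muscle, 7.47, 6.37 and 6.33 CPM in sheep muscle and 4.51, 2.99 and 7.94 CPM in goat muscle. Cattle muscle lay below all others in both genes, and the departures were 4.82 ± 0.74 (adjusted p = 0.000377) and 2.85 ± 0.49 (adjusted p = 0.000919). AQP4, the water channel of astrocyte endfeet, had a departure of 4.38 ± 1.28 that was lost without cattle brain A, cattle brain B, cattle muscle B or cattle muscle C, against sheep alone and by limma-voom, and its goat model overlaps another gene. Of the 4 negative calls none was left without cattle brain A or cattle brain C, and 1 was left without cattle muscle B, cattle muscle C or goat muscle A. Without any 1 of 9 other libraries 2 were called. Of 16 myelin genes, 7 were called lower in cattle brain and 5 lower in cattle muscle and none higher, beside 13.4% and 16% of all genes, while 2 had a positive and 1 a negative departure. No positive departure was called without cattle brain B, cattle muscle A or cattle muscle C, 1 was called without cattle brain A, cattle brain C, sheep muscle A, sheep muscle B or goat muscle A, and no negative one without cattle brain A, cattle brain B, cattle brain C or cattle muscle C. Their summed brain level was 2455 to 3407 CPM in cattle, 3557 to 4895 CPM in sheep and 10734 to 63878 CPM in goat.

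Of 12 endothelial genes, 7 were called lower in cattle muscle and none higher, with a median muscle difference of -1.18 and a median brain difference of 0.17, beside 16% of all genes lower and 14.7% higher in cattle muscle. Of the 12, 3 had a positive departure and none a negative one, beside 8.14% and 9.2% of all genes, and none of the 3 was called against goat alone. Their summed muscle level was 611 to 677 CPM in cattle, 1679 to 1822 CPM in sheep and 938 to 1605 CPM in goat, without overlap. EMCN, a sialomucin of capillaries and veins, stood at 29.6, 30.2 and 26.9 CPM in cattle muscle, 76.5, 116 and 105 CPM in sheep muscle and 33.5, 38.4 and 58.05 CPM in goat muscle, a departure of 1.79 ± 0.43 (adjusted p = 0.00821). KDR, the main receptor of vascular endothelial growth factor, had a departure of 1.49 ± 0.44, and PECAM1, an adhesion protein of vessel cells, one of 1.59 ± 0.46. Both were lost without cattle brain A, cattle brain B, cattle muscle A or cattle muscle C, which left 1 endothelial call. NOTCH3, a receptor of the mural cells of vessels, stood at 44.8, 32.6 and 29.7 CPM in cattle muscle, 138, 135 and 122 CPM in sheep muscle and 89.1, 62.8 and 90.5 CPM in goat muscle, below all others in cattle, a departure of 1.82 ± 0.33 (adjusted p = 0.00145). Among 8 genes of smooth muscle and pericytes, 1 had a positive and 1 a negative departure, beside 8.14% and 9.2% of all genes. The median departure of these 8 was -0.68, with 5 values below 0.

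Of 15 genes of the circadian clock, 3 had a positive and 2 a negative departure, beside 8.14% and 9.2% of all genes. The labels give no time of day of sampling. ARNTL, the positive arm of the clock, stood at 23.98, 41.4 and 40.1 CPM in cattle muscle, 23.6, 16.6 and 26.9 CPM in sheep muscle and 19.6, 10.7 and 10.7 CPM in goat muscle, where cattle and sheep overlapped, with a departure of -1.42 ± 0.35 (adjusted p = 0.0103) that was not called against sheep alone. BHLHE40, a repressor of the clock, stood at 108, 70.8 and 63.5 CPM in cattle muscle, 431, 468 and 309 CPM in sheep muscle and 97.2, 145 and 215 CPM in goat muscle, and at 213, 172 and 130.4 CPM in cattle brain, 97.3, 109 and 83.5 CPM in sheep brain and 61.2, 82.7 and 54.6 CPM in goat brain. Its brain libraries were highest in cattle without overlap, and its departure was 2.72 ± 0.38 (adjusted p = 0.000192), with brain as the higher tissue in cattle and muscle in sheep and goat. NPAS2, a partner of ARNTL, had a departure of -4.22 ± 0.36, but its cattle gene model covers RPL31, a ribosomal protein gene, in the RefSeq annotation of ARS-UCD2.0, and its counts are uncertain. DBP, an output gene of the clock, was named outside the rule, and its departure of 1.37 ± 0.43 ended without any 1 of 7 libraries, against sheep alone and by limma-voom.

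Of 11 immediate early genes, 3 had a positive departure and none a negative one, beside 8.14% and 9.2% of all genes. Neurons and muscle fibres induce these genes within minutes of stimulation. EGR3 stood at 0.597, 1.24 and 0.8102 CPM in cattle muscle, 191, 53.8 and 26.02 CPM in sheep muscle and 2.09, 5.47 and 1.77 CPM in goat muscle, and at 118, 101 and 66.3 CPM in cattle brain, 37.5, 45.5 and 18.5 CPM in sheep brain and 29.1, 19.6 and 35.9 CPM in goat brain. Cattle lay below all others in muscle and above all others in brain, and the departure was 5.86 ± 0.80 (adjusted p = 0.000162). NR4A2 stood at 8.15, 5.41 and 4.75 CPM in cattle muscle, 284, 324 and 166 CPM in sheep muscle and 4.44, 11.1 and 3.96 CPM in goat muscle. It was high in sheep muscle and not in goat muscle, and its departure of 2.77 ± 0.52 was 5.21 against sheep and 0.32 against goat. EGR2 was likewise high in sheep muscle, with departures of 3.45 against sheep and 1.66 against goat, the second not called. Without sheep brain C, 2 further members had a negative departure, and without goat muscle B 1 had.

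In some genes the departure lay in 1 tissue while the other tissue differed by less than 0.25 on the log2 scale. ECHDC1, an enzyme that repairs a by-product of fatty acid synthesis, stood at 175, 159 and 114 CPM in cattle brain, 57.2, 45.4 and 16.5 CPM in sheep brain and 39.2, 46.1 and 27.95 CPM in goat brain, with a departure of 2.07 ± 0.42. STX2, a syntaxin of the cell membrane, stood at 47.3, 47.1 and 44.8 CPM in cattle brain, 25.1, 24.7 and 17.98 CPM in sheep brain and 12.8, 11.5 and 6.25 CPM in goat brain, with 1.84 ± 0.36. MYOC, myocilin, held 5.71, 8.35 and 5.698 CPM in cattle brain against no more than 0.912 CPM in sheep and goat brain, with 5.28 ± 0.67, and its goat model overlaps another gene. In all 3 the cattle brain libraries lay above the others. Lower in cattle brain without overlap were SPON2, a secreted matrix protein, with -4.65 ± 0.47, ENGASE, a cytosolic enzyme that frees sugar chains, with -1.97 ± 0.34, and SURF6, a nucleolar protein, with -1.87 ± 0.29.

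In muscle alone, GAREM2, an adaptor of growth factor signalling, stood at 28.6, 19.9 and 19.96 CPM in cattle, 0.4405, 0.262 and 0.315 CPM in sheep and 0.403, 0.931 and 0.544 CPM in goat, with a departure of -5.79 ± 0.41 (adjusted p = 5.12e-07). FNTB, a subunit of the enzyme that attaches farnesyl groups to proteins, stood at 129.9, 144 and 133 CPM in cattle, 29.8, 27.3 and 24.1 CPM in sheep and 21.2, 21.7 and 17.3 CPM in goat, with -2.77 ± 0.26 (adjusted p = 5.57e-06). BTBD11, a protein of neurons, stood at 56.2, 78.2 and 88.5 CPM in cattle, 42.2, 44.6 and 47.3 CPM in sheep and 1.498, 0.992 and 1.66 CPM in goat, with -3.16 ± 0.32. Cattle muscle lay above all others in these 3 genes. MIDN, a nuclear protein that takes proteins to the proteasome, stood at 14.2, 23.01 and 15.7 CPM in cattle, 130.2, 219 and 238 CPM in sheep and 43.04, 58.7 and 74.2 CPM in goat, below all others in cattle, with 2.68 ± 0.35 (adjusted p = 9.37e-05).

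RNF175, a ring finger protein, held 2 reads in cattle muscle against 0.274, 0.165 and 0.106 CPM in sheep muscle and 2.88, 2.39 and 6.53 CPM in goat muscle, with 4.81 ± 0.70. Its ratio of cattle to sheep muscle was 0.137 with a 95% exact interval of 0.0152 to 0.581. PCBD1, an enzyme that recycles the cofactor of amine synthesis, was high in goat muscle, and its departure of 3.17 ± 0.44 was 0.14 against sheep and 6.205 against goat. ASCC1 had a departure of -4.65 ± 0.42 and NDUFAF2, an assembly factor of complex I, one of 2.84 ± 0.34; 2 of the 3 gene models of each overlap another gene, and their values are uncertain. None of these genes of a single tissue lost its call when 1 library was left out.

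Over the 42 lists, 15.2% of the 638 members tested were called, 49 positive and 48 negative, beside 17.3% of all genes. The negative count was 26 without cattle brain A, 30 without cattle brain C and 29 without cattle muscle C. The median departure of the lists ranged from -2.79 for 2 red blood cell genes to 0.97 for cholesterol synthesis. By edgeR no member was called among 18 genes of the citric acid cycle, 17 chaperones, 13 interferon and MHC genes, 9 regional markers of the forebrain and 7 of the hindbrain. At an unadjusted p under 0.05 these lists held 3, 5, 3, 2 and 0 members. DESeq2 called 2 of the forebrain markers and none in the other 4 lists, and limma-voom called none in any of the 5. With 1 library left out, edgeR called at most 3 members of any of these 5 lists, 3 of the forebrain markers without sheep brain C and 2 of the interferon and MHC genes without cattle muscle B or sheep brain C. Library totals alone moved the median departure of all genes from -0.08 to 0.06, and the medians of the lists for fat oxidation, chaperones and the mitochondrial ribosome changed sign under that scaling.

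**Figure D5:**
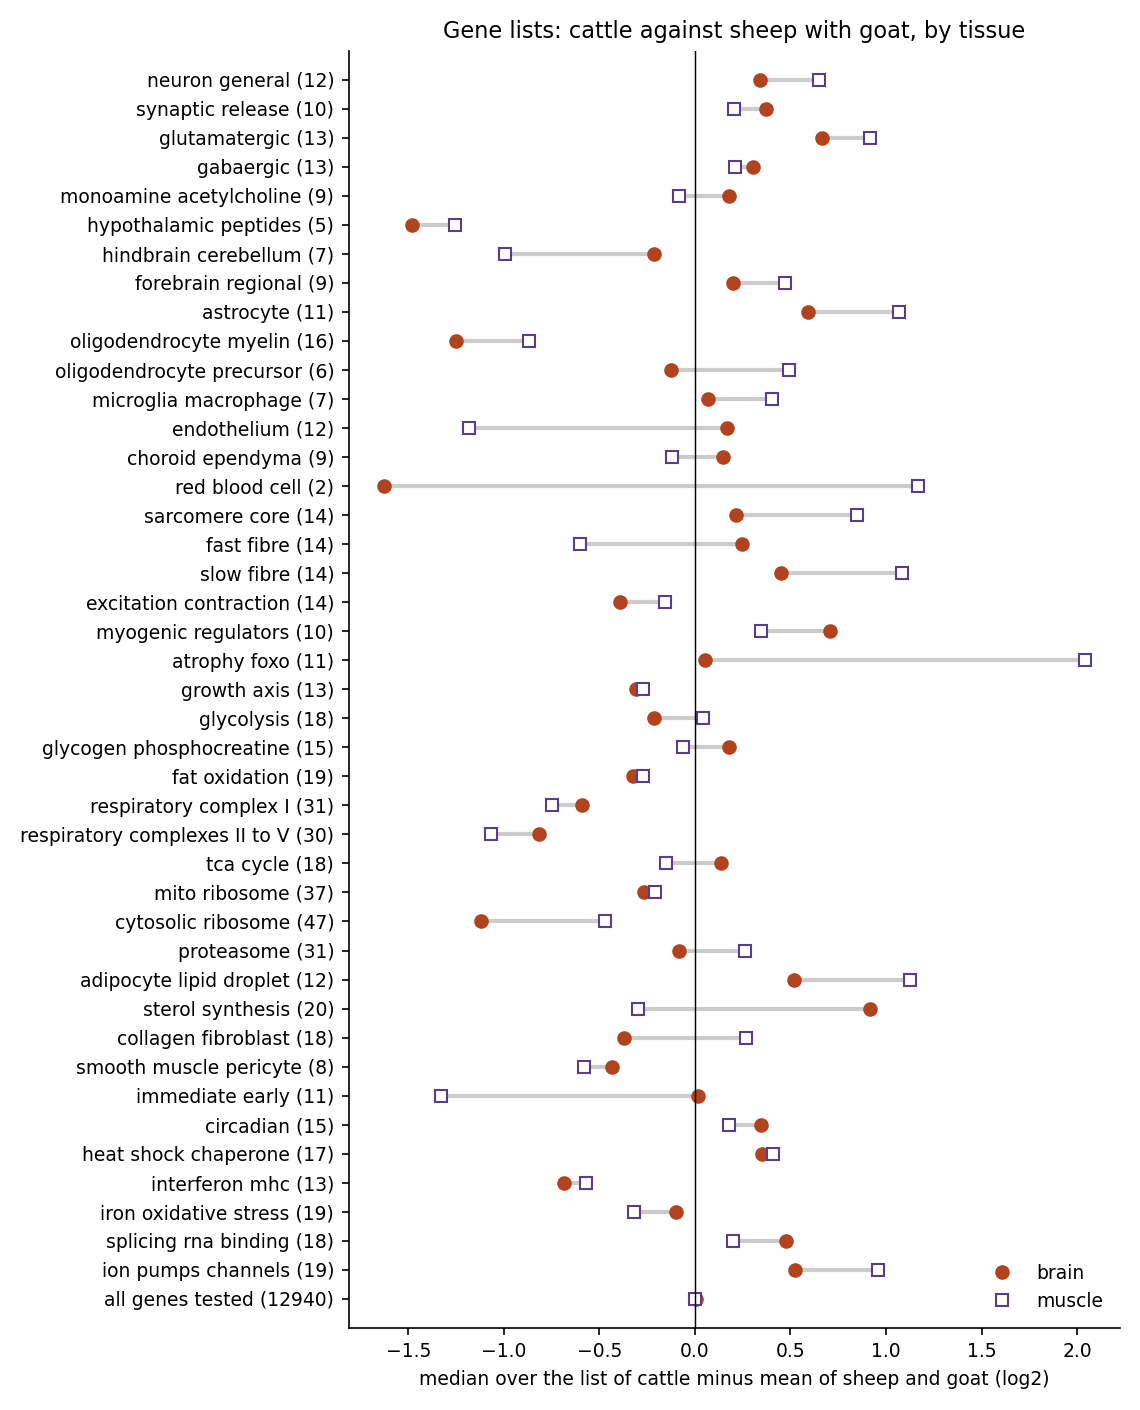
Median brain difference (filled) and muscle difference (open) of each of the 42 gene lists and of all genes tested, as log2 of cattle over the mean of sheep and goat, with no error shown since members are not replicates. The points lie far apart in the FOXO programme, with 0.05 in brain and 2.04 in muscle. They lie closer together in complexes II to V, with -0.81 and -1.07. The gap between the 2 medians is not the median departure. For the immediate early genes the medians are 0.02 in brain and -1.33 in muscle, while the median departure is 0.06.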

How the data were processed

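RNA-seq of 18 libraries, 3 in each of 6 groups, was analysed. Per the submitters' processing notes, reads were trimmed with Trimmomatic 0.39, aligned with STAR 2.7.6 and counted with featureCounts, and the notes name the build ARS-UCD1.2; no source used here names the builds of the sheep and goat gene models. The values deposited are raw counts per gene with exonic length and coordinates, and whether strand was used in counting is not given. Cattle genes were named by position against the RefSeq annotation of ARS-UCD2.0, whose coordinates are not printed. Genes were paired across species by exon lengths and gene order. A first pass asked for at least 2 shared pairs of successive exon lengths. A later pass asked only for a shared exon length in a gene lying between paired neighbours. The later pass gave 4658 of 15693 cattle and sheep pairs and 4839 of 15831 cattle and goat pairs. Of the 14319 genes paired in all species, 9733 rested on the first pass throughout. Counts were filtered with filterByExpr and fitted with edgeR 4.0.16 (quasi-likelihood, robust, trimmed mean of M values scaling, length of each species as offset) in R 4.3.3. Total counts per library ran from 20730803 to 58514630. On simulated data with 12940 genes, 22 of 100 genes changed by 1.5 and 53 of 100 changed by 2.0 on the log2 scale were recovered, with 2 false calls. The simulation gave every species the goat tissue profile and put the changes in cattle brain only, in genes above a count floor. It held no other species difference and no outlying library, so these numbers need not hold for the real data.

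The contrast, members and 42 gene lists were chosen with earlier results of these data known. The lists hold 843 symbols, of which 771 were named in the cattle model, 648 paired and 638 tested. Genes are named by a rule: the 12 largest departures per direction called against each other species and with a level of at least 8 CPM, up to 6 per direction with opposite tissue direction, up to 4 per list, and up to 4 per direction and tissue where the other tissue differed by less than 0.25. Further called list members are named outside the rule, and some genes are not reported here, though they stay in every fit, count and median. Where a group held 0 reads, a floor of 3 counts over the group gave a bound. Alternatives were DESeq2 1.42.0, limma-voom (limma 3.58.1), other scalings, filters, pairings, thresholds and reference species, a replicate block, and each library left out.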

Additional observations from a re-analysis of the deposited data

Results flagged for a closer look

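The difference between the tissue difference of cattle and that of sheep and goat, tested as a contrast of differences, was called in 2244 genes. In 39 of these the tissue direction called in cattle was opposite to that called in sheep and in goat.

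Mitochondrially encoded genes, which entered no comparison between species, took a mean of 24.5% of the counts in cattle brain and 10.1% in cattle muscle. The means were 4.03% in sheep brain, 2.705% in sheep muscle, 3.34% in goat brain and 2.20% in goat muscle. Their part in the results was not tested.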

How the results depend on the processing

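No call turned its direction in any alternative. Requiring at least 10 counts in every library left 726 negative departures, 1820 genes called in brain, 2629 in muscle and 19 opposite in tissue direction. Stricter pairing left 1833 in brain, 2644 in muscle and 24 negative list members. Keeping only genes whose exonic lengths are closely alike in the 3 models, which leaves far fewer genes, gave 204 positive and 216 negative departures, 437 genes in brain, 701 in muscle, 9 opposite, and 7 positive and 7 negative list members. Against sheep alone 75 list members were negative and against goat alone 30. A log2 size of at least 2 gave 590 positive and 571 negative departures, with 31 and 25 list members.

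With each library left out in turn, positive departures ran from 722 to 1498 and negative ones from 837 to 1419, genes called in brain from 2333 to 3246, in muscle from 3442 to 4328, opposite genes from 33 to 47, and list members from 35 to 73 positive and from 26 to 58 negative. The lowest total, 1583, came without cattle muscle C, and the highest, 2917, without sheep brain C.

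DESeq2 called 2719 genes, among them 2201 of the 2244, and limma-voom 2097, among them 1891. The replicate block, with the letter as a block within a species, gave 839 positive and 816 negative departures, 32 opposite genes, and 42 positive and 32 negative list members. It used only the departure, so brain and muscle have no value there. The labels do not say whether the same letter in brain and muscle is the same animal. Correlations of same-letter brain and muscle libraries ranged from -0.25 to 0.22, and those of different letters from -0.25 to 0.28. In sheep all same-letter values, 0.03 to 0.06, lay above those of different letters, but not in cattle or goat. Such correlations cannot decide the question, since each uses deviations from a mean of only 3 libraries. Of 4247 values for the 131 named genes under the alternatives, 486 fell short of the threshold, 0 were reversed, and 65 genes kept their call throughout. Depth limits the genes at or near 0 reads in a group. The cause of these shifts was not tested.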

Other observations

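Some genes that stood out belong to lists not taken up above. Genes of motile cilia, which ependymal cells carry, differed within their list. Among its 9 choroid and ependyma genes, 2 had a positive and 1 a negative departure, beside 8.14% and 9.2% of all genes. RSPH1, a radial spoke protein, held 7.37, 7.51 and 7.48 CPM in cattle brain, 18.9, 9.34 and 10.8 CPM in sheep brain and 9.25, 12.1 and 13.6 CPM in goat brain, and 0 reads in cattle muscle against 0.499, 0.417 and 0.446 CPM in sheep muscle and 0.151, 0.144 and 0.536 CPM in goat muscle. With a floor of 3 counts over the group its departure was at least 2.56. DNAI1, an arm protein of the axoneme, held 1.55, 1.78 and 1.94 CPM in cattle brain, 1.16, 1.11 and 2.15 CPM in sheep brain and 89.1, 54.2 and 85.4 CPM in goat brain, with goat brain far above both, and its departure was -3.97 ± 0.59. The cattle and goat models of DNAI1 overlap another gene. COL6A3, a collagen of the cell surround, held 1.44, 1.66 and 0.977 CPM in cattle brain, 12.97, 10.7 and 8.34 CPM in sheep brain and 117, 3.57 and 45.7 CPM in goat brain, with overlapping muscle levels and a departure of -4.09 ± 0.90 (adjusted p = 0.00487) that was not called against sheep alone or by limma-voom. VCAN, a large matrix proteoglycan, held 36.1, 144 and 85.2 CPM in cattle muscle, 26.4, 30.4 and 28.4 CPM in sheep muscle and 21.5, 23.3 and 9.86 CPM in goat muscle, above all others in cattle, and its departure was -2.65 ± 0.60 (adjusted p = 0.00549). The 6 oligodendrocyte precursor genes tested, VCAN among them, held 2 negative departures and no positive one.

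COX6A2 encodes the muscle form of a cytochrome oxidase subunit. It held 0 reads in cattle brain and 1 read over the 3 cattle muscle libraries, against 513, 409 and 433 CPM in sheep muscle and 1185, 1269.9 and 2939.8 CPM in goat muscle. Its cattle gene model overlaps another gene, and how featureCounts treated reads there was not tested. The departure of 7.46 ± 137.58 (adjusted p = 0.998) is not an estimate to read, as cattle was at or near 0 in both tissues. COX6A2 was chosen after its values were seen.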
